A study of Homo sapiens with 5 samples.

Results

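The genes described here encode 7 RNA-binding proteins known to raise, lower or degrade circular RNAs: QKI, MBNL1, MBNL2, ADAR, DHX9, DDX5 and ILF2. They were chosen by name for that role, and each had a row in the table of 13822 genes. Poly-A+ RNA was sequenced from RH4, an established human line of alveolar rhabdomyosarcoma, a childhood tumour with features of immature skeletal muscle that in this line carries the PAX3-FOXO1 fusion. The cells of 3 samples had received a control siRNA (si-SCR), and those of 2 samples a siRNA against circVAMP3 (si-circVAMP3). Both siRNAs were used at 30 nM with the same lipid reagent. Culture ran for 24 h before a change of medium and for 24 h from there to collection. The study describes the samples as biological replicates of the 1 line.

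Circular RNAs are closed rings with no cap or tail. They are made by back-splicing, in which the end of an exon is spliced to its own start or to the start of an earlier exon. Proteins that bridge the introns on either side of the exons, such as the STAR-family protein QKI and the muscleblind proteins MBNL1 and MBNL2, favour it. Enzymes that melt or edit the paired inverted repeats in those introns, such as the helicase DHX9 and the adenosine deaminase ADAR, restrain it. QKI and the muscleblind proteins are also known for regulating alternative splicing in muscle.

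circVAMP3 is made from exons 3 and 4 of VAMP3, which encodes a vesicle SNARE protein. In the GRCh38 assembly with GENCODE release 44, exon 3 lies at chr1:7777160-7777318 (159 bases) and exon 4 at chr1:7778118-7778169 (52 bases) on the plus strand, so the circle holds 211 bases. The siRNA and the back-splice junction are shown because the junction is the only part that the linear mRNA lacks. In the junction line the capitals mark the 19 bases shared with the siRNA, 8 at the end of exon 4 and 11 at the start of exon 3. Exons 3 and 4 joined in linear order held 0 matches. In the lines of the siRNA strands the capitals mark bases 2 to 8 of the strand that is the reverse complement of the listed one (its seed, the part that leads pairing with a target) and the bases that pair with them.
siRNA strand as listed: caucaucggugGUGGACAuuu
siRNA other strand: aUGUCCACcaccgaugaug
junction of exon 4 and exon 3: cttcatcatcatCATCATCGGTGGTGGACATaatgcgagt

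Levels are given as FPKM, the fragments counted for a gene scaled to the length of its exons and to the sample's total. The whole fragment numbers behind the FPKM could be recovered for 13819 of the 13822 genes, to within 0.02 of a whole number. The si-SCR samples held 25596264, 24238915 and 24135304 fragments in the listed genes and the si-circVAMP3 samples 18081125 and 28036041, so the shallowest and the deepest sample were of the same group. Over the 7 regulators a sample's count ran from 557 fragments for MBNL2 to 22851 for DDX5. The resulting counting error was between 0.866% and 1.18% of the level for QKI and between 3.30% and 4.24% for MBNL2. FPKM summed all isoforms of a gene, so the nuclear and cytoplasmic forms of QKI, or the constitutive and interferon-induced forms of ADAR, were not told apart.

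Before any group was compared, 1 sample stood slightly apart from its group. Over all genes tested, si-SCR replicate 3 correlated with si-SCR replicates 1 and 2 at r = 0.993 and 0.995, while replicates 1 and 2 correlated with each other at 0.997 and the 2 si-circVAMP3 samples at 0.997 (description across genes, which are not independent). Its level of MYOD1, a myogenic factor, was 84.3 FPKM against 115 and 105 in the other si-SCR samples. Its level of ISG15, an interferon-induced ubiquitin-like protein, was 0.555 FPKM against 2.03 and 2.26. No 2 samples of a group agreed within counting error (chi-square of 3.27 to 10.3 per degree of freedom). Values without this sample are given for the 7 regulators, for VAMP3 and where they change another result.

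The label of the cells was checked against marker genes. MYOD1 (84.3 to 127 FPKM), the muscle intermediate filament gene DES (248 to 291 FPKM) and the growth factor receptor gene FGFR4 (183 to 251 FPKM) were high in all 5 samples. MYOG, CHRNA1, CDH15 and MYCN, other muscle and rhabdomyosarcoma markers, lay between 18.8 and 179 FPKM. The fusion partners were lower, FOXO1 at 6.01 to 7.87 FPKM and PAX3 at 2.13 to 2.46 FPKM. The PAX3 mean in si-SCR was higher than those of 26.7% of the genes tested. Gene-level FPKM has no value for the fusion itself, which was not analysed here. MYF5 had no row and was not analysed here. The 9 muscle and rhabdomyosarcoma markers with a row summed to 1017, 999 and 852 FPKM in si-SCR and to 817 and 835 in si-circVAMP3, with DES the most abundant. Of 6 fibroblast markers 3 had a row, and they summed to between 1.57 and 1.87 FPKM, with PDGFRA the most abundant at 0.757 to 0.882. Of 5 epithelial markers only KRT8 had a row, at no more than 0.651 FPKM, and of 6 blood and endothelial markers only PECAM1, at no more than 0.153.

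The targeted locus was looked at next. A poly-A+ gene table has no value for circVAMP3 itself, which has no tail, so the circle's level was not analysed here. VAMP3 mRNA stood at 36.4, 35.4 and 37.4 FPKM in the si-SCR samples and at 29.4 and 30.2 in the si-circVAMP3 samples. Both si-circVAMP3 values lay below all 3 si-SCR values. The log2 difference, si-circVAMP3 minus si-SCR on log2(FPKM + 0.5) values, was -0.29 (SE 0.043, limma, two-sided, Benjamini-Hochberg adjusted p = 0.00502 over 12423 genes). It was -0.27 without si-SCR replicate 3. Without si-circVAMP3 replicate 1 it was also -0.27 and missed the threshold at an adjusted p of 0.0512 (0.00287 to 0.0512 over the alternatives).

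In si-SCR cells ILF2 had the highest mean level of the 7 regulators, followed by DHX9, DDX5, QKI, ADAR, MBNL1 and MBNL2. ILF2 reached 177 ± 5.51 FPKM (SD, n = 3) and MBNL2 6.62 ± 0.360, and these means were higher than those of 98.6% and 53.4% of the genes tested. Neighbours in this order did not overlap in any of the 6 pairs, in si-SCR or in si-circVAMP3, although DHX9 (91.8 ± 1.60) and DDX5 (85.1 ± 1.17) were close. The order was the same in si-circVAMP3, with changed distances. QKI stood 1.71, 1.65 and 1.57 times above ADAR in the si-SCR samples, and 1.08 and 1.12 times above it in the si-circVAMP3 samples. ADAR stood 1.32, 1.28 and 1.31 times above MBNL1 in si-SCR, and 2.09 and 2.06 times in si-circVAMP3.

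**Figure D1:**
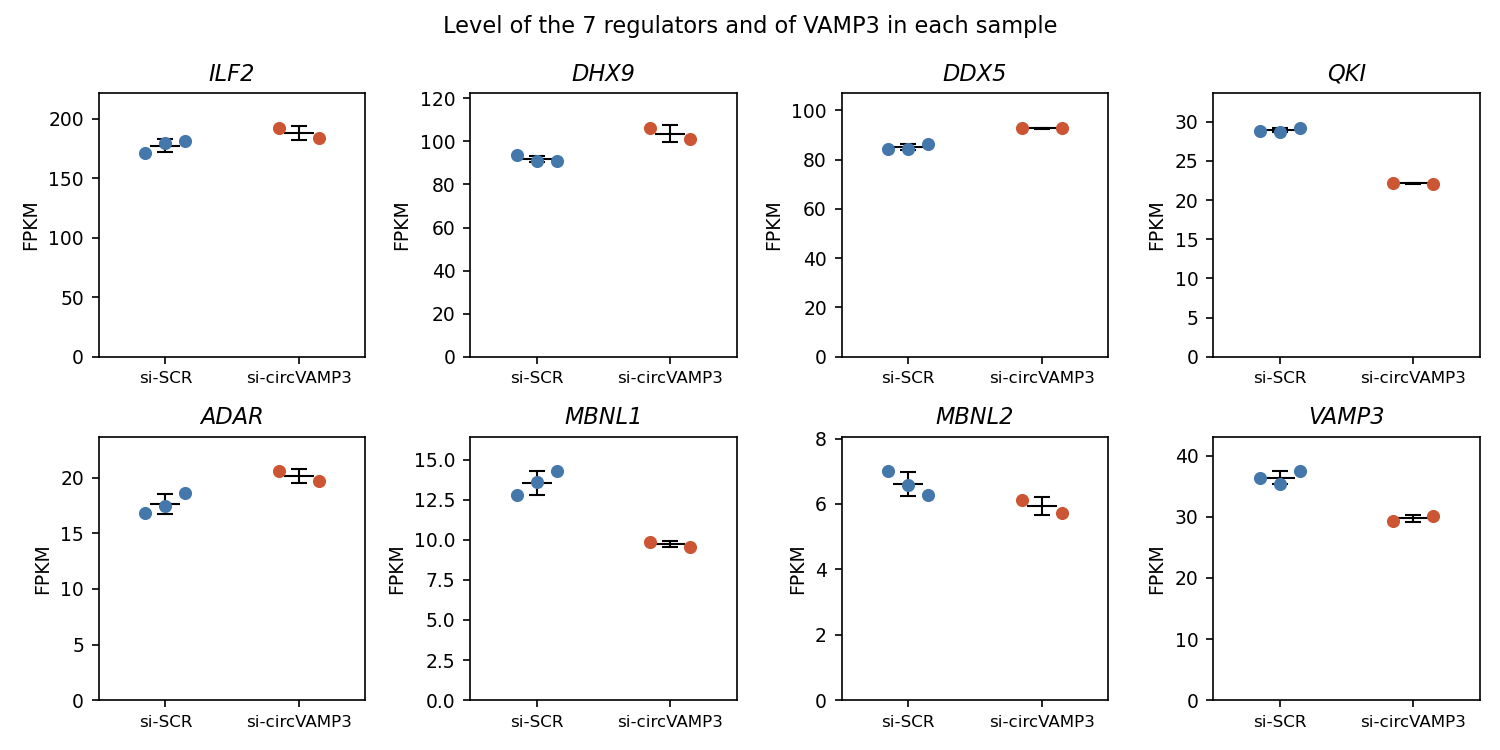
FPKM of each regulator and of VAMP3 mRNA in the 3 si-SCR and 2 si-circVAMP3 samples, with points for samples, black lines for the group mean and bars for 1 SD, on axes that start at 0. QKI falls from 28.9 to 22.1 FPKM and MBNL1 from 13.6 to 9.72, while the groups of ILF2 and MBNL2 lie close together.

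A gene was called where its adjusted p was under 0.05. Of the 7 regulators 5 were called, against 30.2% of the 12423 genes tested (3756 genes). By direction, ADAR, DHX9 and DDX5 were called higher in si-circVAMP3 (3 of 7, against 14.4% of all genes) and QKI and MBNL1 lower (2 of 7, against 15.8%). The count of 5 fell to 3 without si-SCR replicate 1 and to 2 without si-SCR replicate 2 or either si-circVAMP3 sample, where 1254 to 3088 genes were called in all, and to 2 with a variance prior without trend (3431 genes). With a further limit of 0.58 on the absolute log2 difference, 0 of 7 were called, against 3.76% of all genes. The 2 groups' values did not overlap for 7 of 7 regulators, against 58.4% of all genes. Since the genes were picked with earlier results of these data known, these counts describe the 7 genes and are no test of them as a group. Their median log2 difference was 0.09 and that of all genes 0.01. An exact permutation test of 3 samples against 2 cannot go below p = 0.1, so calls rest on the spread that limma shares between genes.

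**Figure D2:**
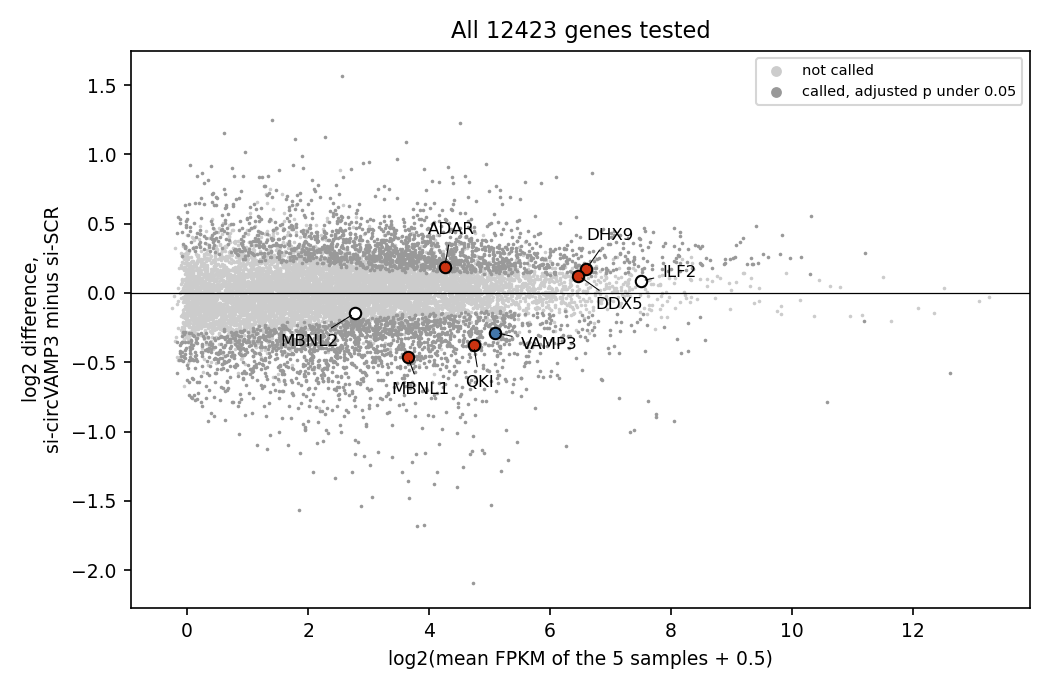
Log2 difference (si-circVAMP3 minus si-SCR) of each of the 12423 genes tested against log2 of its mean FPKM over the 5 samples, with pale grey for genes not called and dark grey for called genes. The 7 regulators (red where called, white where not) lie between -0.46 and 0.19, inside the cloud of other called genes, as does VAMP3 (blue) at -0.29.

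QKI binds a short bipartite motif in the introns that flank circularised exons and brings them together. It was measured at 28.8, 28.7 and 29.2 FPKM in si-SCR and at 22.2 and 22.0 FPKM in si-circVAMP3. Within each group the SD was 0.956% and 0.513% of the mean, close to a counting error of 0.866% to 1.18%, and the groups were far apart by comparison. The mean fell by 23.4%, a log2 difference of -0.38 (SE 0.039, 95% confidence interval -0.47 to -0.28, limma adjusted p = 0.00142). QKI was lower in all 15 alternatives and called in each, between -0.39 and -0.36, and without si-SCR replicate 3 it stood at -0.37. In bulk RNA, less QKI RNA per cell and fewer cells with high QKI cannot be told apart, which holds for each gene below.

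The genes most like QKI were sought as a description. Over the 5 samples, the log2 levels of TRIM44, SH3BP4 and PHF20 had the highest Pearson correlation with those of QKI, each at r = 1.00 after rounding. TRIM44, of the tripartite motif family, stood at 13.8, 13.5 and 14.1 FPKM in si-SCR and at 8.11 and 8.06 FPKM in si-circVAMP3, a log2 difference of -0.73. SH3BP4, an endocytic adaptor gene, had a log2 difference of -0.57 and PHF20, a chromatin reader gene, of -0.37. With 5 samples in 2 groups such values are common: 361 of the 12422 other genes reached r of at least 0.99 with QKI.

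MBNL1 and MBNL2 encode muscleblind proteins, zinc-finger splicing regulators that are sequestered in myotonic dystrophy, and muscleblind itself favours circles from its own gene. MBNL1 was at 12.8, 13.6 and 14.3 FPKM in si-SCR and at 9.86 and 9.58 FPKM in si-circVAMP3. The lowest si-SCR value was above both si-circVAMP3 values. The mean fell by 28.3%, a log2 difference of -0.46 (SE 0.059, 95% confidence interval -0.60 to -0.32, limma adjusted p = 0.00286), the largest of the 7 in size. It was called in all 15 alternatives, between -0.50 and -0.42, and was -0.42 without si-SCR replicate 3.

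MBNL2 was at 7.0, 6.57 and 6.28 FPKM in si-SCR and at 6.12 and 5.74 FPKM in si-circVAMP3. The groups did not overlap, but the highest si-circVAMP3 value was close to the lowest si-SCR value. Its log2 difference of -0.15 (95% confidence interval -0.30 to 0.01) was not called (limma adjusted p = 0.142), nor was it in any alternative, and it was -0.18 without si-SCR replicate 3. Reads that fit both muscleblind genes may not have been counted for either, and whether the differences of MBNL1 and MBNL2 differ from each other was not tested. As a ratio, MBNL1 stood 1.83, 2.08 and 2.27 times above MBNL2 in si-SCR, and 1.61 and 1.67 times in si-circVAMP3.

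ADAR converts adenosine to inosine in paired RNA and so loosens the repeats that support back-splicing. It was at 16.8, 17.5 and 18.6 FPKM in si-SCR and at 20.6 and 19.7 FPKM in si-circVAMP3. Both si-circVAMP3 samples were above the si-SCR samples, whose own spread was wide (SD 5.2% of the mean, against a counting error of 1.35% to 1.65%). The log2 difference was 0.19 (SE 0.056, 95% confidence interval 0.05 to 0.32), and the limma adjusted p of 0.0466 lay just inside the threshold. The call was lost without si-SCR replicate 1 (adjusted p = 0.0992), si-SCR replicate 2 (0.128), si-circVAMP3 replicate 1 (0.233) or si-circVAMP3 replicate 2 (0.127), and with quantile normalization (0.0608) or a variance prior without trend (0.0749). Without si-SCR replicate 3 the difference was 0.23 with an adjusted p of 0.0147, and over the alternatives the adjusted p ran from 0.0147 to 0.233.

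DHX9, an RNA helicase that unwinds inverted Alu repeats in nascent transcripts, was at 93.7, 91.0 and 90.8 FPKM in si-SCR and at 106 and 101 FPKM in si-circVAMP3. The si-circVAMP3 samples were above all si-SCR samples and also spread more widely. The log2 difference was 0.17 (SE 0.041, 95% confidence interval 0.07 to 0.27, limma adjusted p = 0.0223), and 0.17 without si-SCR replicate 3. It was not called without si-SCR replicate 2 (0.0746), si-circVAMP3 replicate 1 (0.158) or si-circVAMP3 replicate 2 (0.0664), nor without the trend (0.0576), with adjusted p between 0.0125 and 0.158 over the alternatives.

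DDX5, a DEAD-box helicase of splicing, transcription and microRNA processing, was at 84.5, 84.3 and 86.4 FPKM in si-SCR and at 93.0 and 92.7 FPKM in si-circVAMP3. Values within each group were close, and the groups did not overlap. The log2 difference of 0.13 (SE 0.036, 95% confidence interval 0.04 to 0.21, limma adjusted p = 0.0412) was the smallest of the 5 that were called. It was 0.14 without si-SCR replicate 3, and the call was lost without any other single sample: si-SCR replicate 1 (0.0899), si-SCR replicate 2 (0.121), si-circVAMP3 replicate 1 (0.182) and si-circVAMP3 replicate 2 (0.171). It was also lost without the trend (0.106) and with the replicate number as a block (0.0728), and the adjusted p lay between 0.0304 and 0.182 over the alternatives.

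ILF2, a subunit of a nuclear complex that binds paired RNA, was at 171, 180 and 181 FPKM in si-SCR and at 192 and 184 FPKM in si-circVAMP3. The groups lay next to each other without overlap. The log2 difference of 0.09 (95% confidence interval -0.02 to 0.19) was not called (limma adjusted p = 0.187), and no alternative called it. It was 0.10 without si-SCR replicate 3. ILF2, DDX5 and DHX9 have processed pseudogenes in the annotation, and reads that fit such a near-copy may not have been counted for the parent gene.

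Genes around the 7 regulators were taken from lists by role. Of 13 paralogs and partners of the regulators 11 had a row and were tested, and only ADARB1 was called, higher (1 of 11, against 14.4% of all genes called higher). ADARB1, the second active adenosine deaminase of the family, was at 1.82, 1.90 and 1.83 FPKM in si-SCR and at 2.38 and 2.58 FPKM in si-circVAMP3, a log2 difference of 0.34 (limma adjusted p = 0.0140) whose call was lost without either si-circVAMP3 sample (0.0573 and 0.107). DDX17, the close paralog of DDX5, had a log2 difference of -0.05 and MBNL3 of -0.11, both with intervals that held 0. The median of the list was -0.05.

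Of 25 other RNA-binding proteins that promote or restrain back-splicing, 23 had a row and 22 were tested. Only RBFOX2 was called (1 of 22, against 30.2% of all genes). RBFOX2, a regulator of muscle and neuronal exons, was at 22.2, 22.3 and 23.6 FPKM in si-SCR and 26.1 and 25.3 FPKM in si-circVAMP3 (log2 difference 0.18, limma adjusted p = 0.0327). That call was lost without any 1 sample other than si-SCR replicate 3 (0.0763 to 0.182) and without the trend (0.0624). The list had 3 calls without si-SCR replicate 3, and 0 without si-SCR replicate 2 or either si-circVAMP3 sample. The largest difference of this list in size, 0.24 for the polypyrimidine tract protein gene PTBP1, was not called (adjusted p = 0.0569). It was called without si-SCR replicate 1 (0.0481) or si-SCR replicate 3 (0.0420), with rescaling to the same median (0.0327) and with limma-voom (0.0269). No other alternative called it. The list's median was 0.05.

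All 6 core splicing factors whose loss is known to shift output from linear to circular RNA were tested, and 3 were called, each higher (3 of 6, against 14.4% of all genes called higher). SLU7, a factor of the second splicing step, was at 9.15, 8.75 and 8.64 FPKM in si-SCR and at 10.6 and 10.9 FPKM in si-circVAMP3 (log2 difference 0.27, limma adjusted p = 0.0101). SF3A1, of the U2 particle, had a log2 difference of 0.18 (adjusted p = 0.0229) and CDC40, which also acts late in splicing, of 0.17 (adjusted p = 0.0447). PRPF8, SF3B1 and SNRNP70 were not called, and the median of the 6 was 0.13. The count fell from 3 to 1 without si-SCR replicate 1 or 2, to 2 without si-SCR replicate 3, and to 0 without either si-circVAMP3 sample. CDC40 was the gene lost without si-SCR replicate 3 (0.16, adjusted p = 0.0558). It also lost its call with no filter (0.0511), and CDC40 (0.0511 and 0.0989) and SF3A1 (0.0516 and 0.0650) lost theirs without the trend and with the replicate number as a block.

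Of 15 genes of circular RNA export and turnover 14 had a row and were tested, with 2 called higher and 3 lower. These 5 calls are 35.7% of the list, close to the 30.2% of all genes. In 1 route of the list an m6A reader recruits an endonuclease through an adaptor. YTHDF2, the reader, was called higher (log2 difference 0.20, limma adjusted p = 0.0169), but not without si-circVAMP3 replicate 1 (0.0730) or si-circVAMP3 replicate 2 (0.120). POP1, a subunit of RNase P and MRP, was called higher (0.22, adjusted p = 0.0410). Its call was lost without any 1 sample other than si-SCR replicate 3 (0.0761 to 0.236) and with the replicate number as a block (0.0623). RPP38 (0.08) and RPP40 (0.00), other subunits of these enzymes, were not called and had overlapping groups. RIDA, the adaptor, was lower, at 20.4, 19.6 and 22.1 FPKM in si-SCR and at 15.2 and 15.2 FPKM in si-circVAMP3 (-0.43, adjusted p = 0.00342), and was called in all 15 alternatives.

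AGO2 and TNRC6B, of the microRNA effector complex, were the other genes of this list that were called, both lower. AGO2 was at 13.4, 14.4 and 14.6 FPKM in si-SCR and at 11.0 and 11.6 FPKM in si-circVAMP3 (log2 difference -0.31, limma adjusted p = 0.00858), with the call lost without si-circVAMP3 replicate 1 (0.0736). TNRC6B had a log2 difference of -0.32 (adjusted p = 0.0294), while its paralogs TNRC6A (0.17, adjusted p = 0.0660) and TNRC6C (-0.20, adjusted p = 0.0850, groups without overlap) were not called. TNRC6A was called without si-SCR replicate 3 (0.0141), with the replicate number as a block (0.0386) and with limma-voom on recovered fragments (0.0313). TNRC6C was called with limma-voom (0.0429) and in no other alternative, and the difference between the paralogs was not tested. The call of TNRC6B was lost without si-SCR replicate 2 (0.0794), si-circVAMP3 replicate 1 (0.0787) or si-circVAMP3 replicate 2 (0.177), and with the block (0.0790). Export genes DDX39A, DDX39B and XPO4 lay between -0.06 and 0.05 and were not called. Without 1 sample at a time, the number of calls in this list lay between 1, without si-circVAMP3 replicate 1, and 7, without si-SCR replicate 3.

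**Figure D3:**
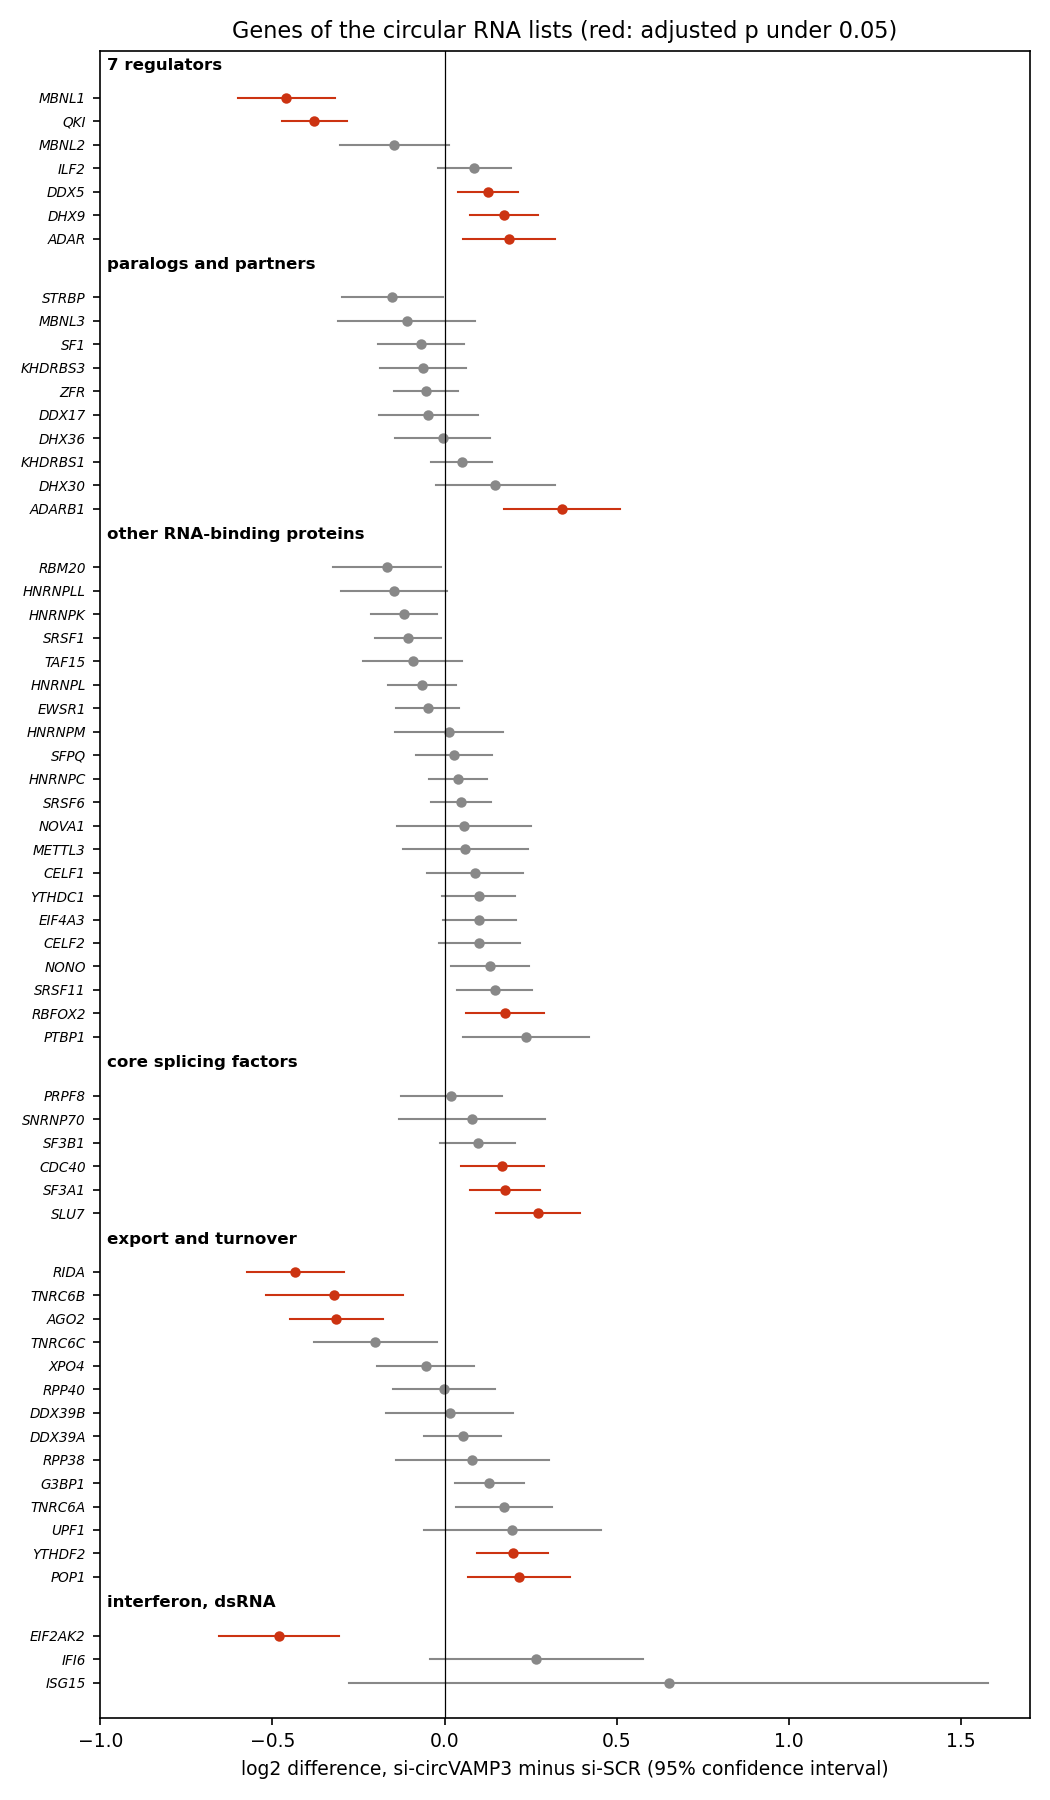
Log2 difference (si-circVAMP3 minus si-SCR, point) with its 95% confidence interval (line) for tested genes of the lists by role, in red where the adjusted p is under 0.05 and in grey otherwise. QKI and MBNL1 lie at -0.38 and -0.46, the paralogs and partners lie between -0.15 and 0.15 apart from ADARB1 at 0.34, and ISG15 has the widest interval.

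ADAR has an interferon-induced form, and introduced RNA can set off an interferon response, so genes of that response were read beside it. Of 15 such genes 7 had a row and 4 passed the filter of 0.5 FPKM in at least 2 samples. EIF2AK2, the kinase PKR that binds paired RNA including circular RNA, was the only one called (1 of 4, against 30.2% of all genes). It was lower, at 3.8, 4.19 and 4.32 FPKM in si-SCR against 2.75 and 2.84 FPKM in si-circVAMP3 (log2 difference -0.48, limma adjusted p = 0.00503). ISG15 (log2 difference 0.65, 95% confidence interval -0.28 to 1.58) and IFI6 (0.27) were not called. Without si-SCR replicate 3, the sample with low ISG15, these differences were 0.21 and 0.14 and were not called either. IFIT1, IFIT3 and IRF9 were under the filter, with no value above 0.587 FPKM. IFIT3 was at 0.118, 0.284 and 0.332 FPKM in si-SCR and at 0.447 and 0.506 FPKM in si-circVAMP3. IRF9 was at 0.314, 0.190 and 0.325 FPKM in si-SCR and at 0.587 and 0.446 FPKM in si-circVAMP3. Both were higher in si-circVAMP3 without overlap, while IFIT1 overlapped. With no filter IRF9 was called (log2 difference 0.39, limma adjusted p = 0.0378) and IFIT3 was not (0.40, adjusted p = 0.0627). The part of this response in the ADAR difference was not tested.

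Markers of the cells were compared between the groups as well. Of the 9 muscle and rhabdomyosarcoma markers tested, 2 were called, both lower (22.2%, against 30.2% of all genes called and 15.8% called lower). MYOG, the myogenic factor of terminal differentiation, was at 175, 179 and 149 FPKM in si-SCR and at 101 and 96.6 FPKM in si-circVAMP3 (log2 difference -0.76, limma adjusted p = 0.00157). FOXO1, a partner of the fusion, was lower as well (-0.26, adjusted p = 0.0242), although not without si-SCR replicate 2 (0.0820), si-circVAMP3 replicate 1 (0.154) or si-circVAMP3 replicate 2 (0.0801). The other 7 muscle and rhabdomyosarcoma markers were not called, among them MYOD1 (0.20) with overlapping groups. Of the 9 estimates 8 were below 0 and 1, that of MYOD1, was above, against 6064 below and 6359 above in all genes. The list's median was -0.11 and that of all genes 0.01. Without si-SCR replicate 3 the calls in this list rose from 2 to 5, where 4018 of 12343 genes were called in all. FGFR4 (-0.37) and DES (-0.18) were among the 5, and MYOG stood at -0.84. The list had 1 call without si-SCR replicate 2, si-circVAMP3 replicate 1 or si-circVAMP3 replicate 2. KRT8 was called higher, but it passed the filter only through the si-circVAMP3 samples. Gene-level FPKM does not tell FOXO1 itself from the FOXO1 part of the fusion transcript. What part the differences of MYOG and FOXO1 have in those of QKI and MBNL1, splicing regulators of muscle, was not tested.

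QKI and MBNL1, the 2 regulators called lower, share a sequence feature that the choice of genes did not use. The search was made after the values were seen and is a description. The 7-base word GTGGACA, which pairs with bases 2 to 8 of the siRNA's other strand, occurs 1 time in the 3′ UTR of the canonical transcript of each. It occurs 0 times in the 3′ UTRs of ADAR, DHX9, DDX5, ILF2, MBNL2 and VAMP3. VAMP3 does hold the word outside its 3′ UTR, within the 11 siRNA bases at the start of exon 3. Those 11 bases are also part of the linear mRNA and pair with the siRNA's other strand without a break. The part of that match in the lower VAMP3 level was not tested. The windows are printed below with the 7 bases in capitals. In each, 10 of the 19 bases of the siRNA's other strand pair, with these 7 included. The QKI window lies at chr6:163575084-163575102 on the plus strand, and its 7-base word starts at base 4385 of a UTR of 7882 bases. The MBNL1 window lies at chr3:152464988-152465006 on the plus strand, and its word starts at base 2633 of 3414. Which strand the cells loaded is not stated in the sources used here.
QKI: tgtactgttagGTGGACAg
MBNL1: tttgctttcttGTGGACAg

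The word is common, so the background was counted. Of 11039 tested genes with an annotated 3′ UTR, 1274 (11.5%) held GTGGACA at least 1 time. Their median log2 difference was -0.11, against 0.03 in the 9765 genes without it. Of those with the word, 33.5% were called lower and 7.46% higher, and of those without it 13.8% and 16.7%. With 2 or more occurrences (146 genes) the median was -0.19. Of the genes with the word, 20.5% had a lower log2 difference than QKI and 15.4% a lower one than MBNL1. Among the 2099 genes without it in the quartile of longest UTRs, which holds QKI and MBNL1, these shares were 6.62% and 3.62%. The genes with the word were taken at any UTR length, so these shares are not matched for length.

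Genes with the word had longer UTRs (median 2948 against 1234 bases), and QKI and MBNL1 were both in the longest quartile. Within that quartile the medians were -0.11 with the word (660 genes) and -0.02 without (2099 genes), and in the shortest quartile -0.11 (79 genes) and 0.06 (2683 genes). The word CGATGAT, which pairs with bases 2 to 8 of the listed strand, was in 200 genes with a median of -0.02, against 0.01 in the other genes, and in none of the 7 regulators (0 of 7). Of the 57 tested genes of the other lists by role with a UTR, cell markers left out, 3 held GTGGACA. Among the 4 called lower, TNRC6B and AGO2 held it and 2 did not: RIDA (-0.43) and EIF2AK2 (-0.48), which fell most of the 4. MYOG (-0.76) and FOXO1 (-0.26), the muscle and rhabdomyosarcoma markers called lower, did not hold it either. Of the same 57 genes, it was in 0 of the 7 called higher and in 1 of the 46 not called, SF1.

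**Figure D4:**
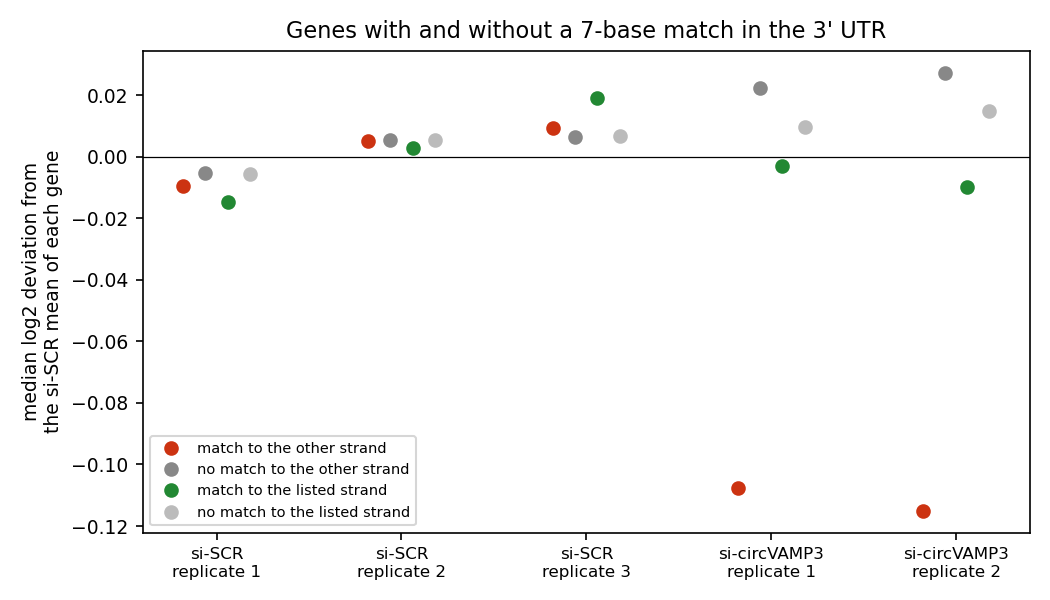
Median log2 deviation from each gene's si-SCR mean in each of the 5 samples, for genes with and without a 7-base match in the 3′ UTR to either siRNA strand. Genes with a match to the other strand lie at -0.11 and -0.12 in the si-circVAMP3 samples and genes without it at 0.02 and 0.03, while the si-SCR samples lie near 0, as their deviations average to 0 for every gene.

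By sample, the median of genes with GTGGACA minus that of genes without it was 0.00 after rounding in each of the 3 si-SCR samples, and -0.13 and -0.14 in the si-circVAMP3 samples. The same contrast for CGATGAT was -0.01 and -0.02 in the si-circVAMP3 samples. Matches of the control siRNA were not analysed here. The part of these matches in the lower levels of QKI and MBNL1 was not tested, and with 1 siRNA against circVAMP3 an effect of its sequence and an effect of the loss of the circle cannot be told apart.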

How the data were processed

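Poly-A+ RNA of 5 RH4 samples was sequenced with a strand-marking kit. The deposited FPKM values were made by the authors: bcl2fastq 2.20.0.422, Trimmomatic, STAR 2.5.2b on GRCh38 with Ensembl annotation, strand-specific htseq-count, removal of low genes and gene-level FPKM with edgeR. Genes that were removed were not analysed here. Gene identifiers were matched to symbols for 13783 of 13822 rows. Genes with at least 0.5 FPKM in at least 2 samples (12423, with all 7 regulators) were fitted with limma 3.58.1 (R 4.3.3, trended prior) on log2(FPKM + 0.5), which understates the change of low genes, with group as the only term and Benjamini-Hochberg adjustment over all genes. The fit was tested on simulated data. P-values measure the spread between these samples. Alternatives were pseudocounts of 0.1 and 1, no filter or 1 FPKM, median rescaling, quantile normalization, a prior without trend or robust, the replicate number as a block, each sample left out, and, chosen after seeing the data, limma-voom on fragment numbers recovered from FPKM. The 7 regulators and the lists were chosen with earlier results of these data known. Named genes were the 7 regulators, VAMP3, up to 4 called genes per list and direction with the largest differences, checks of identity, and the 3 genes most correlated with QKI. Others were named after their values were seen, and some genes of the lists are counted but not reported here by name. UTRs were those of canonical transcripts in GENCODE release 44.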

Additional observations from a re-analysis of the deposited data

How the results depend on the processing

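The 7 regulators kept their direction in all 15 alternatives, 5 of which leave out 1 sample. QKI and MBNL1 were called in each and ILF2 and MBNL2 in none. Leaving out 1 sample (a lone si-circVAMP3 sample is assumed to vary like si-SCR) gave 1254 to 4018 called genes in place of 3756, 475 to 1989 of them higher and 777 to 2029 lower, with a higher share of 36.9% to 49.5% in place of 47.7%. Rescaling to the same median turned the balance, with 2036 higher and 1738 lower (53.9% higher). The regulators called numbered 2 to 5, and the log2 differences ran from 0.15 to 0.23 for ADAR, 0.14 to 0.21 for DHX9, 0.12 to 0.14 for DDX5 and -0.31 to -0.27 for VAMP3. Calls in the lists ran from 0 to 1 for paralogs and partners, 0 to 3 for other RNA-binding proteins, 0 to 2 for core splicing factors, 1 to 7 for export and turnover and 1 to 5 for muscle markers. Fewer samples were fitted there, so a lost call alone is no sign of a smaller difference, and some estimates were smaller. Where ADAR (0.19) lost its call, the estimate was smaller without si-SCR replicate 1 (0.15) and larger without si-circVAMP3 replicate 2 (0.22). Genes near 0 that were never called changed sign: DDX39B ran from -0.046 to 0.073, RPP38 from -0.033 to 0.19, PRPF8 from -0.074 to 0.11 and RPP40 from -0.046 to 0.037 without 1 sample, and RPP40 (-0.0025) was 0.019 with median rescaling and 0.0020 with limma-voom.

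Without the trend 2 regulators were called: ADAR (0.19), DHX9 (0.17) and DDX5 (0.13) kept their estimates and lost the call, other RNA-binding proteins had 0 calls and core splicing factors 1. Quantile normalization took the call of ADAR (0.19) and gave other RNA-binding proteins 3 calls, as did rescaling to the same median, while a filter of 1 FPKM gave them 2. The pseudocount of 0.1 raised the genes past the limit of 0.58 from 467 to 717, and that of 1 lowered them to 334. Without a filter 2 interferon genes and 2 core splicing factors were called. limma-voom on recovered fragments, chosen after seeing the data, called 764 genes past the 0.58 limit, the same number of regulators (5), 4 other RNA-binding proteins and 8 export and turnover genes. The cause was not tested. The contrast of genes with and without GTGGACA lay between -0.16 and -0.12.

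With the replicate number as a block (replicate block) 3050 genes and 4 regulators were called, DDX5 was not (0.14, adjusted p = 0.0728), 1 core splicing factor was, 4 muscle markers were and RPP40 was at 0.037. Nothing in the labels ties equal numbers together, and with only 2 shared numbers the deviations of equal numbers correlated at -0.148 and -0.0311.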
